A study of Mus musculus with 12 samples.

Results

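Dendritic cells switch T cells on, or hold them back, through a small set of surface molecules, and 10 of the genes that encode them are described here: Cd40, Cd80, Cd86, Cd274, Pdcd1lg2, Icosl, Icam1, Tnfsf9, Il15 and Il15ra. They were chosen by name, as the rows of the deposited count table whose Ensembl identifiers map to these mouse symbols, 10 of 42687 rows. CD80 and CD86 on a dendritic cell engage CD28 and CTLA-4 on the T cell, ICOS ligand engages ICOS, and the tumour necrosis factor relative encoded by Tnfsf9 (4-1BB ligand) engages 4-1BB. PD-L1 (Cd274) and PD-L2 (Pdcd1lg2) bind the inhibitory receptor PD-1, ICAM-1 holds the contact together through the integrin LFA-1, and CD40 receives the CD40 ligand signal by which helper T cells license the dendritic cell. Interleukin-15 is held on the cell surface by its receptor alpha chain, which presents it to T and natural killer cells that carry the beta and common gamma chains. Interferons and NF-kB are known to induce many of these genes.

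The cells were DC2.4, an immortalised mouse dendritic cell line labelled WT, and each of 4 groups had 3 libraries of stranded mRNA sequencing. The group labelled DNAse+ATEVs, here DNase-ATEV, was given ATEVs that had first been exposed to Baseline-ZERO DNase, which degrades DNA, at 15 µg/mL. The ATEV group was given ATEVs without that step, at 15 µg/mL, the NTEV group extracellular vesicles of non-activated T cells at 30 µg/mL, and the control group phosphate-buffered saline (PBS). The labels spell out NTEV only; ATEV is read here as extracellular vesicles of activated T cells. The doses differed between ATEV and NTEV; a note of 5 µg/mL of vesicle DNA stands beside the NTEV dose and may cover ATEV too. Cells were reseeded after each exposure and the procedure was done 3 times, which may mean rounds or separate experiments. Whether libraries of a group derive from different cultures is not stated, and the p-values therefore reflect the variation among these libraries, possibly technical. All libraries come from 1 cell line, and no group given DNase without vesicles was analysed here.

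Libraries held 19.4 to 30.4 M gene counts (1 M = 1e+06). Of the 16 markers fixed for the cell line, 9 carried enough counts to be tested. The haematopoietic genes Ptprc and Spi1 and the dendritic or myeloid genes Itgax, Irf8, Zbtb46, Itgam, Sirpa and Batf3 were counted in all 12 libraries. By contrast, the dendritic cell genes Clec9a, Flt3, Xcr1, Cd209a and Ccr7 were absent or nearly so, Clec9a with 0 counts in all 12 libraries and the others with at most 7. Macrophage markers such as Csf1r, Adgre1 and Cd68 were also present; the summed level of the 10 macrophage markers was 3180 to 3490 CPM (counts per 1e+06 normalised counts) with DNase-ATEV, 4730 to 8130 with ATEV, 4810 to 5440 with NTEV and 3360 to 4030 with PBS. Lyz2 made up much of the sum, at 1200 to 1450 CPM with DNase-ATEV, 2470 to 5410 with ATEV, 2530 to 3170 with NTEV and 1450 to 1880 with PBS. Relative to PBS, 10 of the 10 macrophage markers had a higher mean with ATEV (median log2 fold change 0.6) and 4 of 10 with NTEV (median -0.14). Of the 9 tested markers of the cell line, 7 had a positive log2 fold change with ATEV (median 0.39) and 6 with NTEV (median 0.14). The part of these markers in the results below was not tested. In RNA from a whole well, more cells of a kind and more RNA per cell cannot be told apart. Of 14 T cell markers, 3 carried enough counts to be tested. Cd3e, Trbc1, Trbc2 and Cd8a had 0 counts in every library and Cd3d, Cd3g, Trac and Zap70 at most 4. The summed level of the list was 60.2 to 62.1 CPM with DNase-ATEV, 52.8 to 86 with ATEV, 46.9 to 87.9 with NTEV and 38.8 to 63.6 with PBS. Il7r made up much of that sum, at 42.3 to 53.5 CPM with DNase-ATEV, 41.7 to 75.6 with ATEV, 37.3 to 75.4 with NTEV and 29.6 to 53.2 with PBS.

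All 10 genes carried enough counts to be tested, although Pdcd1lg2, with 1 to 28 counts a library, passed the filter on low counts through the vesicle-treated libraries and is the least precise. Levels of different genes were compared per kilobase of exon (GENCODE M21). In PBS cells Tnfsf9 stood highest at 23.3 ± 6.84 CPM per kb (SD, n = 3), then Icam1 at 17.3 ± 1.61, Cd86 at 12.9 ± 1.49 and Cd274 at 6.42 ± 2.38. Tnfsf9 and Icam1 overlapped between libraries, while Icam1 and Cd86, and Cd86 and Cd274, did not. Below Cd274, the genes Il15, Cd40, Il15ra, Icosl and Cd80 lay between 3.54 and 2.25 CPM per kb with overlapping neighbours, and Pdcd1lg2 stood last at 0.105 ± 0.0891. With ATEV, Icam1 (22.3 ± 1.04 CPM per kb) and Tnfsf9 (20.9 ± 1.28) again overlapped at the top, and Cd274 (15.2 ± 2.88) overlapped Cd86 (17.2 ± 3.96). Il15 (2.62 ± 0.111) lay below Cd40, Il15ra, Cd80 and Icosl with ATEV. In PBS cells its mean lay above theirs, but its libraries overlapped those of Cd40, Il15ra and Icosl.

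**Figure D1:**
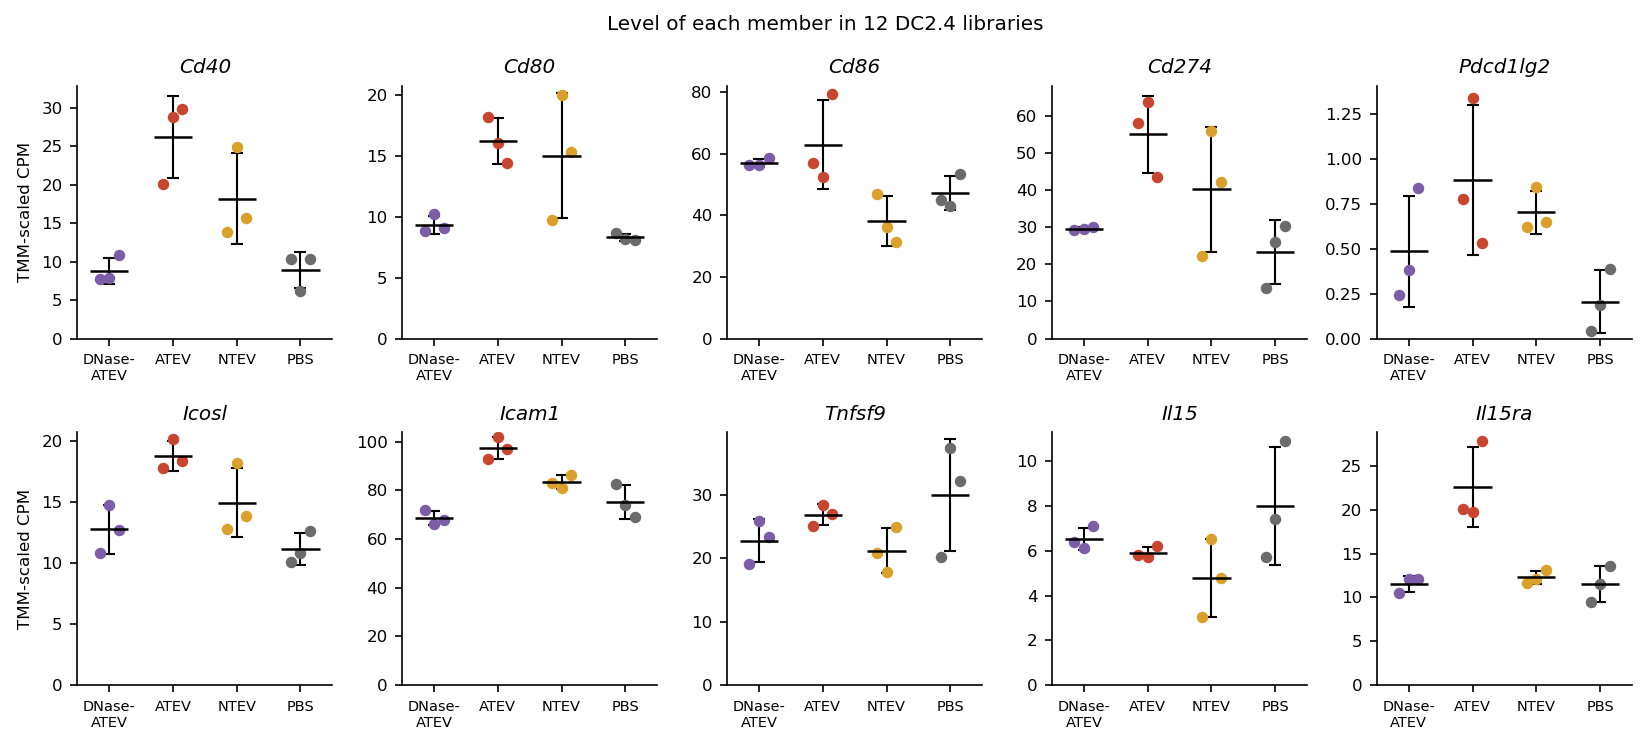
Each panel plots the TMM-scaled CPM (linear axis from 0) of a gene in the 12 libraries, as points by group, with a bar at the mean and whiskers of 1 SD (n = 3). Cd40 and Il15ra stand highest in the ATEV libraries, at 20.1 to 29.8 and 19.8 to 27.9 CPM, with an NTEV library at 24.9 CPM inside the ATEV range for Cd40; Tnfsf9 and Il15 have their highest libraries in PBS.

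Setting ATEV against PBS tests the response to the vesicles as a whole. The genes Cd40, Il15ra, Cd274, Cd80 and Icosl rose, by 1.68 to 2.92-fold, and none of the 10 fell. That is 5 of 10 called higher at an adjusted p under 0.05, where 3.32% of the 13261 tested genes were called higher, 1.42% lower and 4.74% in either direction. The median log2 fold change of the 10 was 0.86, against 0.03 over all tested genes. That median includes Pdcd1lg2, which passed the filter on low counts through the vesicle-treated libraries and adds no support to it. Since the 10 were chosen with earlier results of these data known, this count is a description and carries no test of its own. It also rests on few libraries: without any 1 of the 6 libraries the count was between 2 and 4, and it was 2 without ATEV replicate 2 or 3 or PBS replicate 1 or 2, 3 without ATEV replicate 1 and 4 without PBS replicate 3. Over the whole table those fits called 169 to 849 genes, against 628 with all libraries.

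CD40 is the receptor by which T cell help reaches the dendritic cell. Cd40 stood at 20.1, 28.8 and 29.8 CPM in ATEV cells, against 10.3, 6.24 and 10.3 CPM in PBS cells. Every ATEV library lay above every PBS library. The log2 fold change was 1.55 ± 0.26 (SE; 95% interval 0.98 to 2.12; adjusted p = 0.00546), and the call was kept in all 6 fits that left out a library. Il15ra, which presents interleukin-15, stood at 20.1, 19.8 and 27.9 CPM in ATEV cells, against 9.47, 11.5 and 13.6 CPM in PBS cells. The groups did not overlap here either, which held for 16.3% of all tested genes in this direction. Its log2 fold change was 0.97 ± 0.18 (adjusted p = 0.00862), and this call too was kept in all 6 fits.

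The 3 other calls were less firm. Cd274, the PD-L1 gene, stood at 57.9, 63.6 and 43.4 CPM in ATEV cells, against 13.6, 26 and 30.2 CPM in PBS cells. PBS replicate 1 lay lowest, and the fold change was 1.24 ± 0.31 (adjusted p = 0.0419). The call held in 1 of the 6 fits that left out a library, the one without PBS replicate 3, and the adjusted p reached 0.149 without ATEV replicate 2. Cd80, the B7-1 ligand of CD28 and CTLA-4, had 18.2, 16.1 and 14.4 CPM in ATEV cells, against 8.67, 8.22 and 8.1 CPM in PBS cells. Its PBS libraries had a coefficient of variation of 3.61%. The log2 fold change was 0.96 ± 0.22 (adjusted p = 0.0277), and none of the 6 fits that left out a library kept it (adjusted p = 0.0509 to 0.118). Icosl, the ligand of ICOS, had 17.8, 20.2 and 18.4 CPM in ATEV cells, against 10.1, 10.8 and 12.6 CPM in PBS cells. It rose by 0.75 ± 0.17 (adjusted p = 0.0297), which held without ATEV replicate 1 or PBS replicate 3 and was lost without any of the other 4 libraries (adjusted p up to 0.124).

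Of the remaining 5 genes, Icam1 and Pdcd1lg2 had all ATEV libraries above all PBS libraries without passing the test. Icam1, the LFA-1 ligand, had 92.9, 102 and 97.2 CPM in ATEV cells, against 82.8, 74 and 68.9 CPM in PBS cells (log2 fold change 0.37 ± 0.10, adjusted p = 0.0568). Pdcd1lg2 had 18, 28 and 10 counts in ATEV libraries, against 1, 4 and 9 counts in PBS libraries (2.1 ± 0.61, adjusted p = 0.0656). DESeq2 called Icam1 (adjusted p = 0.016). No call is read from Pdcd1lg2, which was tested because of the libraries where it is high. Cd86, the B7-2 ligand, did not pass (0.41 ± 0.17, adjusted p = 0.155), and its ATEV libraries at 56.9, 52.5 and 79.5 CPM overlapped the PBS libraries at 45.1, 43.1 and 53.4 CPM. Neither Tnfsf9 (-0.16 ± 0.20, interval -0.60 to 0.28, adjusted p = 0.64) nor Il15 (-0.44 ± 0.28, interval -1.03 to 0.16, adjusted p = 0.318) passed, and both had a mean below PBS. The interval of Il15 lies below the estimate for its receptor chain.

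**Figure D2:**
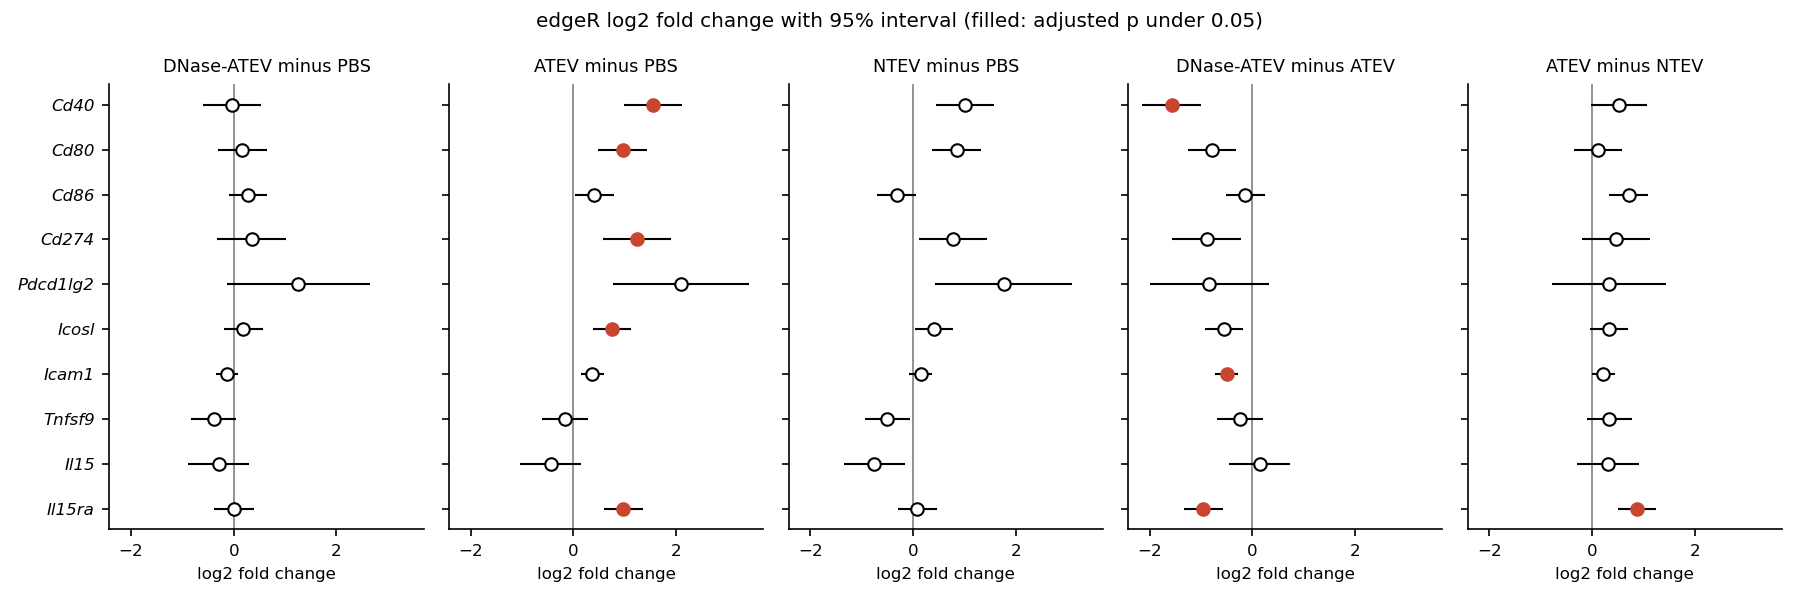
Points give the edgeR log2 fold change of each gene in the 5 comparisons and lines its 95% interval; filled points passed an adjusted p of 0.05. With ATEV over PBS 5 genes are filled on the right of 0; with DNase-ATEV over ATEV Cd40, Icam1 and Il15ra are filled on the left, and with DNase-ATEV over PBS none is filled.

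The comparison of DNase-ATEV with ATEV asks what changes when the vesicles are exposed to DNase first, at the same 15 µg/mL. Cd40, Il15ra and Icam1 fell, to 0.336, 0.513 and 0.707 of the ATEV level, and none of the 10 rose. This was 3 of 10 called lower, where 1.32% of all tested genes were called lower, 0.143% higher and 1.46% in either direction. The median log2 fold change was -0.68 against 0 over all tested genes. It includes Pdcd1lg2, which passed the filter on low counts through the vesicle-treated libraries and adds no support to the median. The count was 3 without ATEV replicate 1, 2 without ATEV replicate 2 or DNase-ATEV replicate 3, 1 without ATEV replicate 3 or DNase-ATEV replicate 1, and 0 without DNase-ATEV replicate 2.

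Cd40 stood at 7.8, 7.81 and 10.8 CPM with DNase-ATEV, against 20.1, 28.8 and 29.8 CPM with ATEV. The groups were far apart, and the log2 fold change was -1.57 ± 0.26 (95% interval -2.14 to -1; adjusted p = 0.00748). The call was kept in 5 of 6 fits and lost without DNase-ATEV replicate 2 (adjusted p = 0.0582). Il15ra had 10.5, 12.1 and 12.1 CPM with DNase-ATEV, against 20.1, 19.8 and 27.9 CPM with ATEV. Its fold change was -0.96 ± 0.18 (adjusted p = 0.013), kept in 3 of 6 fits and lost without DNase-ATEV replicate 1 or 2 or ATEV replicate 3 (adjusted p up to 0.0654). Icam1 had 71.9, 66.2 and 68 CPM with DNase-ATEV, against 92.9, 102 and 97.2 CPM with ATEV (-0.50 ± 0.10, adjusted p = 0.0282). This was the smallest of the 3 changes, with the narrowest spread, and the call was kept in 1 of 6 fits, the one without ATEV replicate 1 (adjusted p otherwise 0.0639 to 0.176). It was also lost without the filter on low counts (0.0673) and in the fit to these 6 libraries alone (0.103).

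Cd274, Cd80 and Icosl also had every DNase-ATEV library below every ATEV library, as did 10.1% of all tested genes, but did not pass edgeR. Other fits called Cd80 (adjusted p = 0.0261 with DESeq2 and 0.0367 without the filter on low counts) and Cd274 (0.0143 without the filter and 0.0185 in the fit to the 6 libraries of this comparison). Cd274 stood at 29.1, 29.6 and 30.1 CPM with DNase-ATEV, against 57.9, 63.6 and 43.4 CPM with ATEV (-0.89 ± 0.31, interval -1.56 to -0.23, adjusted p = 0.205). Its 3 DNase-ATEV libraries differed by a coefficient of variation of 1.69%, the lowest of the 10 genes in any group. Cd80 had a fold change of -0.79 ± 0.22 (adjusted p = 0.109) and Icosl of -0.56 ± 0.17 (adjusted p = 0.156). For Cd86 (-0.14 ± 0.17, interval -0.52 to 0.24), Tnfsf9 (-0.24 ± 0.21, interval -0.68 to 0.21) and Il15 (0.14 ± 0.28, interval -0.45 to 0.74) the libraries overlapped. Pdcd1lg2 had 5, 8 and 20 counts with DNase-ATEV, too few to place it (-0.84 ± 0.54, adjusted p = 0.474).

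Against PBS, DNase-ATEV left the 10 genes without a call. None passed edgeR, DESeq2 or limma-voom, and 0 had an unadjusted p under 0.05; over all tested genes edgeR called 0% (791 genes at an unadjusted p under 0.05), DESeq2 37 genes and limma-voom 0. The intervals set what could have been missed. For Cd40 the log2 fold change was -0.03 with an interval of -0.60 to 0.54, and for Il15ra it was 0.01 with an interval of -0.38 to 0.39, with upper ends below the ATEV over PBS estimates of 1.55 and 0.97. Cd274 (0.35, interval -0.32 to 1.02), Cd80 (0.17, -0.31 to 0.64) and Icosl (0.19, -0.18 to 0.57) likewise had upper ends below their ATEV estimates of 1.24, 0.96 and 0.75, although the intervals of the pairs of estimates overlap for these 3 genes. These comparisons share the PBS libraries. Cd80, at 8.81, 10.2 and 9.06 CPM, and Cd86, at 56.4, 56.2 and 58.6 CPM, had all 3 DNase-ATEV libraries above the PBS libraries, as did 7.69% of all tested genes, while no member had all 3 below, as 5.68% did. Tnfsf9 had 19.2, 25.9 and 23.4 CPM with DNase-ATEV, against 20.3, 37.5 and 32.3 CPM with PBS (-0.39 ± 0.20, adjusted p = 0.825).

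With vesicles of non-activated T cells, set against PBS, no member passed edgeR, DESeq2 called 2 (Cd40 and Cd80) and limma-voom called 0. An unadjusted p under 0.05 was reached by 7 of 10, with Tnfsf9 and Il15 lower and the other 5 higher. Among those 5 is Pdcd1lg2, which passed the filter on low counts through the vesicle-treated libraries and adds no support to the count. Over all 13261 tested genes 2.31% were called by edgeR, 1.7% higher and 0.611% lower, DESeq2 called 826, and 2534 had an unadjusted p under 0.05. The SD of Cd40, Cd80 and Cd274 was larger with NTEV than in any other group. Cd40 stood at 13.9, 24.9 and 15.7 CPM with NTEV, against 10.3, 6.24 and 10.3 CPM with PBS (1.02 ± 0.26, adjusted p = 0.0603). Cd80 had 9.73, 20 and 15.3 CPM with NTEV, against 8.67, 8.22 and 8.1 CPM with PBS (0.85 ± 0.22, adjusted p = 0.0607). In both genes all NTEV libraries lay above all PBS libraries, as in 12.8% of all tested genes, and NTEV replicate 2 was highest. Cd274 had 22.3, 55.9 and 42.2 CPM with NTEV, against 13.6, 26 and 30.2 CPM with PBS (0.79 ± 0.31, adjusted p = 0.191), with NTEV replicate 1 inside the PBS range. Without NTEV replicate 1, edgeR called 3 of the 10, namely Cd40 (1.19, adjusted p = 0.0176), Cd80 (1.10, adjusted p = 0.00421) and Cd274 (1.09, adjusted p = 0.0216); in that fit 1685 genes were called over the whole table, against 306 with all libraries.

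The other members varied in direction, and no difference between genes was tested. Il15ra had 11.7, 12.1 and 13.1 CPM with NTEV, against 9.47, 11.5 and 13.6 CPM with PBS (0.09 ± 0.18, interval -0.29 to 0.47). Il15 had 3.04, 6.53 and 4.77 CPM with NTEV, against 5.71, 7.42 and 10.9 CPM with PBS (-0.75 ± 0.28, adjusted p = 0.167). Cd86 (-0.31 ± 0.18, adjusted p = 0.354) and Tnfsf9 (-0.50 ± 0.21, adjusted p = 0.206) likewise had means below PBS without passing. Icosl (0.42 ± 0.17, adjusted p = 0.206) and Pdcd1lg2 (1.77 ± 0.62, adjusted p = 0.15) had all NTEV libraries above all PBS libraries, and Icam1 (0.15 ± 0.10, adjusted p = 0.442) overlapped. Nothing is read from the separation of Pdcd1lg2, which was tested because of the libraries where it is high.

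Set directly against NTEV, ATEV raised 1 of the 10 genes, Il15ra, where 0.875% of all tested genes were called higher, 0.0603% lower and 0.935% in either direction. Il15ra stood at 20.1, 19.8 and 27.9 CPM with ATEV, against 11.7, 12.1 and 13.1 CPM with NTEV (0.88 ± 0.18, 95% interval 0.50 to 1.25, adjusted p = 0.0301). The call was kept without ATEV replicate 1 or 2 and lost without ATEV replicate 3 or NTEV replicate 1, 2 or 3 (adjusted p up to 0.153); the fit to these 6 libraries alone gave an adjusted p of 0.11. Cd86 was the next gene, with 56.9, 52.5 and 79.5 CPM in ATEV cells, against 46.9, 36.3 and 31.2 CPM in NTEV cells. All ATEV libraries were higher, as in 8.61% of tested genes (7.16% had all 3 lower), but the test was not passed (0.72 ± 0.18, adjusted p = 0.0946); DESeq2 called it (adjusted p = 0.0151), and so did edgeR without NTEV replicate 1 (adjusted p = 0.0334). No difference passed for Cd40 (0.53, interval -0.02 to 1.08), Cd80 (0.11, -0.35 to 0.58), Cd274 (0.46, -0.20 to 1.12), Icosl (0.33, -0.04 to 0.70), Icam1 (0.22, 0.00 to 0.44), Tnfsf9 (0.34, -0.10 to 0.78), Il15 (0.31, -0.29 to 0.91) or Pdcd1lg2 (0.33, -0.78 to 1.44), and these intervals do not show that both vesicle types act alike. The vesicle dose differed, 15 µg/mL of ATEV and 30 µg/mL of NTEV.

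Ratios of counts within a library do not depend on how libraries are scaled. They were chosen with the values above known and are given without a test; 3 libraries against 3 could not give an exact permutation p under 0.05. For each count of Il15 there were 1.65, 1.98 and 1.7 of Il15ra with DNase-ATEV, 3.45, 3.45 and 4.5 with ATEV, 3.85, 1.86 and 2.74 with NTEV, and 1.66, 1.55 and 1.25 with PBS. The ATEV libraries lay above those of DNase-ATEV and PBS, whereas of the NTEV libraries 1 lay within the ATEV range, 1 within the DNase-ATEV range and 1 between them. Cd80 over Cd86 was 0.156, 0.182 and 0.155 with DNase-ATEV, 0.32, 0.306 and 0.181 with ATEV, 0.208, 0.551 and 0.491 with NTEV, and 0.192, 0.19 and 0.152 with PBS. ATEV replicate 3, which had the most Cd86, lay within the PBS range, and every NTEV library lay above that range. Cd274 over Cd86, an inhibitory over a costimulatory ligand, was 0.516, 0.527 and 0.514 with DNase-ATEV, 1.02, 1.21 and 0.546 with ATEV, 0.475, 1.54 and 1.35 with NTEV, and 0.302, 0.603 and 0.565 with PBS. ATEV replicate 3 and NTEV replicate 1 lay within the PBS range. Cd274 over Cd80, also an inhibitory over a costimulatory ligand, was 3.31, 2.89 and 3.33 with DNase-ATEV and 3.18, 3.96 and 3.01 with ATEV. It was 2.29, 2.8 and 2.75 with NTEV, and 1.57, 3.17 and 3.73 with PBS. For this ratio the PBS libraries overlapped those of each other group, and all NTEV libraries lay below those of ATEV and DNase-ATEV.

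**Figure D3:**
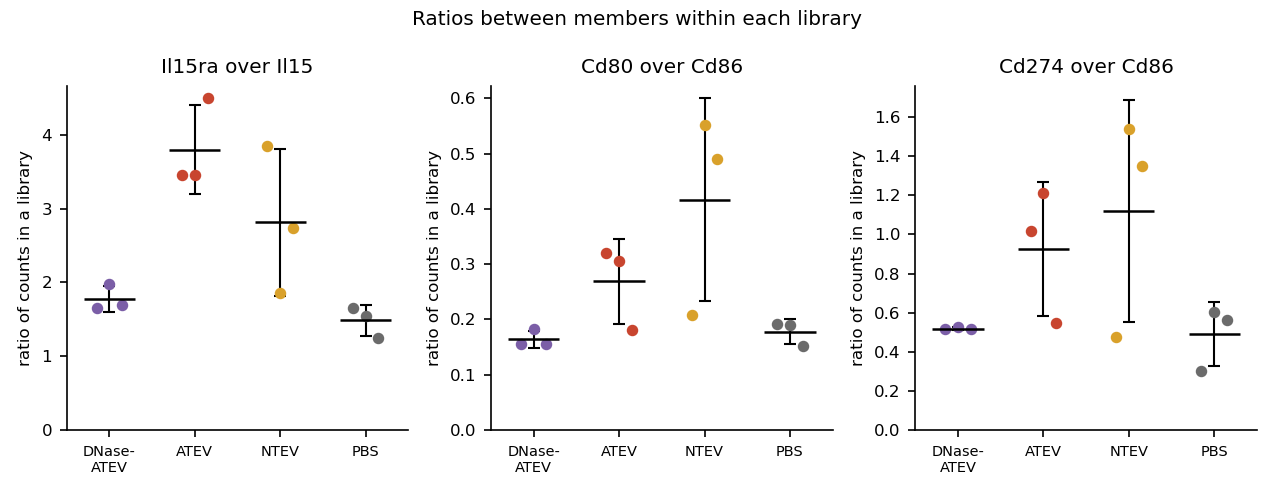
Each point is the ratio of counts of a gene pair in a library (linear axis from 0), by group, with a bar at the mean and whiskers of 1 SD (n = 3). Il15ra over Il15 averages 1.78 with DNase-ATEV, 3.8 with ATEV, 2.82 with NTEV and 1.49 with PBS; the NTEV points scatter most in the Cd80 over Cd86 and Cd274 over Cd86 panels.

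Signalling genes upstream of these molecules were taken from lists made with earlier results known. Of 15 listed genes of interferon signalling, all tested, 4 rose and none fell with ATEV against PBS (median log2 fold change 0.27, against 0.03 over all tested genes). Among all tested genes 3.32% were called higher and 1.42% lower. Irf1, a factor known to drive Cd274 and Il15, had 120, 127 and 122 CPM in ATEV cells, against 11.1, 12.2 and 28.5 CPM in PBS cells (2.83 ± 0.37, adjusted p = 0.000786). Every ATEV library lay above every PBS library, and the call was kept in all 6 fits. Irf9 rose by 1.45 and Stat2 by 1.25, partners in the factor that type I interferon activates, Stat2 with a call that was lost without ATEV replicate 2 or 3 or PBS replicate 1 or 2 (adjusted p up to 0.126).

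With DNase-ATEV against ATEV, 2 of the 15 listed genes were called lower and none higher, where 1.32% and 0.143% of all tested genes were. Of the 2, Irf1 had 20.5, 29 and 30.2 CPM with DNase-ATEV, against 120, 127 and 122 CPM with ATEV (-2.21 ± 0.36, adjusted p = 0.00565). The groups did not overlap, and the call was kept in all 6 fits. With NTEV against PBS none of the 15 passed edgeR (4 at an unadjusted p under 0.05; DESeq2 called 1 and limma-voom 0). Irf1 had 9.59, 24.5 and 16.7 CPM with NTEV, against 11.1, 12.2 and 28.5 CPM with PBS (-0.03 ± 0.35, adjusted p = 0.969). ATEV against NTEV raised 3 of the 15, where 0.875% of all tested genes were called higher. Among the 3 were Irf1 with a log2 fold change of 2.86 and Irf9 with 1.28. The call of Irf9 was lost without NTEV replicate 3 (adjusted p = 0.0815).

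CD40 itself signals through TRAF adaptors to NF-kB, and NF-kB in turn is known to induce Cd40, Cd80 and Icam1. Of 20 listed genes, all tested, NTEV against PBS raised 4 and lowered none (median 0.30, against 0 over all tested genes). Among all tested genes 1.7% were called higher and 0.611% lower. Nfkbia, the feedback inhibitor IkB-alpha, had 38.6, 39.1 and 34.3 CPM with NTEV, against 22, 22.8 and 25.3 CPM with PBS (0.68 ± 0.13, adjusted p = 0.0228). Ikbkg, the NEMO scaffold, rose by 0.60, Nfkb2, the p100 precursor, by 0.83, and the adaptor Traf1 by 1.72. Traf1 had 27, 34 and 29 counts with NTEV, against 11, 7 and 8 counts with PBS. It passed the filter on low counts through the NTEV libraries, so it adds no support to the count or the median. Each of these 4 calls was kept without NTEV replicate 1 and lost without NTEV replicate 2 or 3 or any PBS library, at an adjusted p of up to 0.114 for Nfkbia, 0.151 for Ikbkg, 0.152 for Nfkb2 and 0.16 for Traf1. With ATEV against PBS 1 of the 20 was called, where 4.74% of all tested genes were. It was Nfkbia (0.52 ± 0.13, adjusted p = 0.0453), a call that no fit leaving out a library kept (adjusted p up to 0.176). Relb, the partner of p52, stood at 27.8, 15.1 and 11.6 CPM in ATEV cells, against 10.2, 9.2 and 6.98 CPM in PBS cells, and did not pass (1.05 ± 0.39, adjusted p = 0.117). With DNase-ATEV against ATEV none of the 20 passed edgeR (4 at an unadjusted p under 0.05; DESeq2 called 1 and limma-voom 0), nor did any with ATEV against NTEV (2 at an unadjusted p under 0.05; 0 by DESeq2 and by limma-voom).

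**Figure D4:**
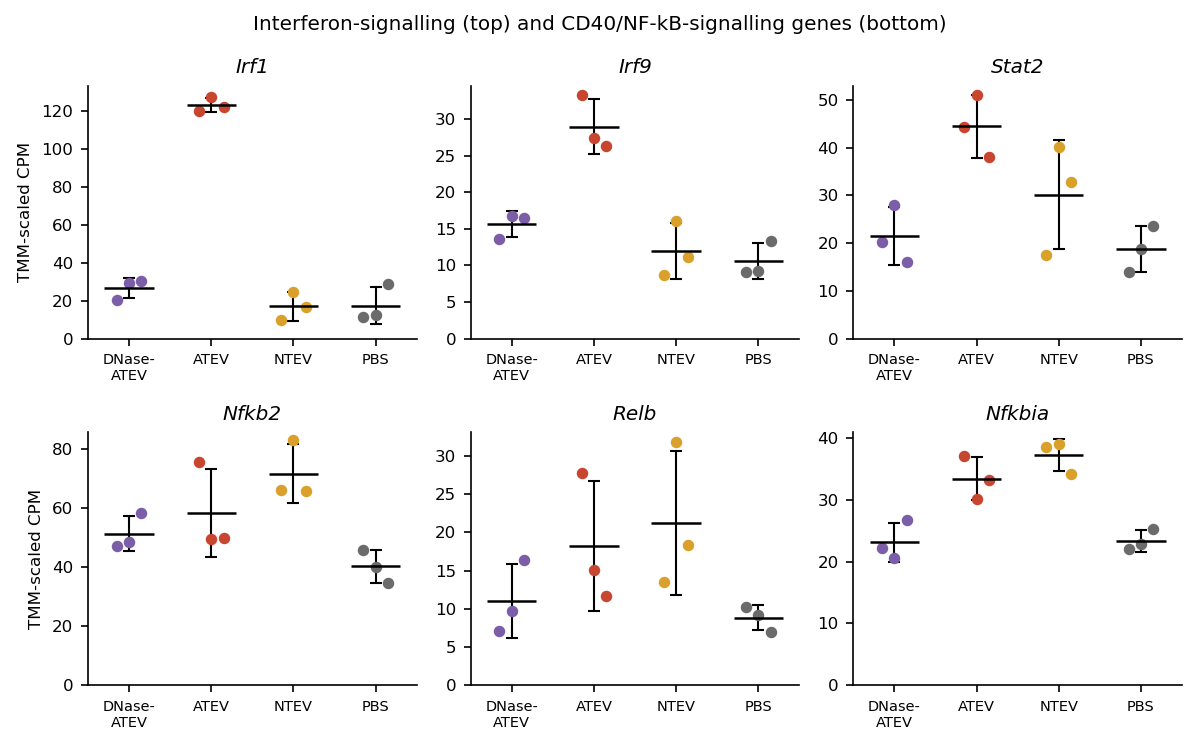
TMM-scaled CPM (linear axis from 0) of 3 interferon-signalling genes (top) and 3 genes of CD40 and NF-kB signalling (bottom) in the 12 libraries, with a bar at the mean and whiskers of 1 SD (n = 3). Irf1 stands at 120 to 127 CPM in ATEV libraries and at no more than 30.2 CPM in those of the other groups, whereas Nfkb2, Relb and Nfkbia have their highest group mean with NTEV.

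The partners that T cells use to read these molecules were partly expressed by the cell line itself. Of 11 listed partners, 6 were tested, and 3 rose and 1 fell with ATEV against PBS. Among all tested genes 3.32% were called higher and 1.42% lower. Itgal, the alpha chain of the ICAM-1 receptor LFA-1, had 72.4, 70.3 and 70.5 CPM in ATEV cells, against 31.4, 29.9 and 26.9 CPM in PBS cells (1.27 ± 0.17, adjusted p = 0.00103), and was called in all 6 fits. Its beta chain Itgb2 rose by 0.61 and the related alpha chain Itgam by 0.51; Itgb2 was not called when ATEV replicate 2 or any PBS library was left out (adjusted p up to 0.128), nor Itgam when ATEV replicate 1 or 2 or any PBS library was (up to 0.169). With DNase-ATEV, Itgal had 45.1, 75.2 and 75.4 CPM, against 72.4, 70.3 and 70.5 CPM with ATEV (-0.12 ± 0.17, adjusted p = 0.767), and Itgb2 fell by 0.66 relative to ATEV (adjusted p = 0.0315, kept in 2 of 6 fits). Cd28, the receptor of CD80 and CD86, fell to 43.5, 44.9 and 33.6 CPM in ATEV cells, against 50.9, 70.9 and 94.6 CPM in PBS cells (-0.83 ± 0.22, adjusted p = 0.0488), a call kept in 1 of 6 fits, the one without PBS replicate 1. Cd28 had 47.5, 48.1 and 37.9 CPM with DNase-ATEV and was not called against PBS by edgeR. In that comparison edgeR called none of the 6 tested partners (smallest adjusted p = 0.0612), and DESeq2 called 1. Every DNase-ATEV library of Itgal lay above every PBS library, as in 7.69% of all tested genes. With NTEV against PBS the counts were also 3 higher and 1 lower, where 1.7% and 0.611% of all tested genes were. Itgal stood at 0.85, Itgb2 at 0.59, Itgam at 0.54 and Cd28 at -1.07, and none of these was kept in all 6 fits. The common gamma chain Il2rg was not called by edgeR in either comparison (0.32, adjusted p = 0.105 with ATEV and 0.41, adjusted p = 0.0762 with NTEV), while DESeq2 called it with NTEV (adjusted p = 0.0141). Cd40lg had 0 counts in all libraries, and Il2rb had at most 1 count.

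Of 24 other ligands and receptors that face T cells, 15 were tested, and 2 rose and 1 fell with ATEV against PBS. Among all tested genes 3.32% were called higher and 1.42% lower. Lgals9, whose product galectin-9 binds TIM-3, rose by 1.38 and was called in all 6 fits. Its level was 28.9, 43.5 and 36.8 CPM with DNase-ATEV, against 16.3, 13 and 22 CPM with PBS, a comparison in which edgeR called no gene. There DESeq2 called 1 of the 15 tested genes of this list, and the smallest edgeR adjusted p in the list was 0.0994. Tnfrsf14, the receptor HVEM, had 6.11, 8.41 and 8.96 CPM in ATEV cells, against 1.28, 1.6 and 2.59 CPM in PBS cells (2.1 ± 0.39, adjusted p = 0.0104), and lost its call without PBS replicate 1 or 2 (adjusted p up to 0.0601). Tnfsf14, the HVEM ligand LIGHT, fell to 0.775, 0.525 and 1.11 CPM in ATEV cells, against 2, 1.6 and 1.81 CPM in PBS cells (-1.17 ± 0.29, adjusted p = 0.0391), a call lost without ATEV replicate 1 or 2 or any PBS library (adjusted p up to 0.155). Tnfrsf14 was also the 1 gene of this list called between DNase-ATEV and ATEV (-1.74 ± 0.39, adjusted p = 0.0428), which was kept without ATEV replicate 1 alone. With NTEV against PBS, Ly75 (2.71) and Lgals9 (0.90) rose and Tnfsf14 fell by 1.43, none of them called in all 6 fits. Cd70, Tnfsf4, Tnfsf8 and Tnfsf15 had 0 counts in all 12 libraries. Regulators of PD-L1 protein turnover, a list of 10, had none called with ATEV against PBS (2 at an unadjusted p under 0.05; 0 by DESeq2 and by limma-voom). Of 12 genes of the interleukin-15 and common gamma chain group, 6 were tested and none was called in that comparison (1 at an unadjusted p under 0.05, and 0 by DESeq2 and by limma-voom). In other comparisons Il21r was called lower with NTEV against PBS and higher with ATEV against NTEV, each call kept in 1 of 6 fits. Il21r had 3, 3 and 2 counts in the NTEV libraries and passed the filter on low counts through other libraries, so no call is read from it.

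Profiles over the 12 libraries were also compared with those of 10538 other genes, each centred on its own mean of log2(CPM + 0.5), by the root mean square difference. Il15ra was nearest to Nlrc5, the transactivator of MHC class I genes, at 0.15 log2 units, where Il15ra itself varied by 0.42, with the pseudogene Rps19-ps7 also at 0.15 and Trim21, an antibody receptor in the cytosol, at 0.16. Cd274 was nearest to Cd200r1, an inhibitory receptor of myeloid cells, and to Stat2, both at 0.22 (own spread 0.61). The nearest genes of Icosl and Icam1, at 0.09 to 0.10, belong to profiles that vary little, with own spreads of 0.31 and 0.20.

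In the genome the Cd274 and Pdcd1lg2 genes are neighbours on chromosome 19, Cd80 and Cd86 lie on chromosome 16, and Cd40 and Il15ra on chromosome 2, where the coding gene beside Il15ra is Il2ra, which had 0 counts in all 12 libraries. Cd70, also at 0 counts, is the coding gene beside Tnfsf9 on chromosome 17. Cd274 overlaps the annotated Plgrkt and a long non-coding RNA, and Cd80, Icosl and Tnfsf9 overlap non-coding RNAs or pseudogenes, so that reads there may be shared; the strand setting of the counting was not given in the sources used here.

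Promoters were read from the RefSeq table of build GRCm38.p6 (250 bases before to 50 after the start; the submitters name mm9, another build), which held 6 of the 10 genes: Cd80, Cd274, Pdcd1lg2, Icosl, Icam1 and Il15ra, the last with both of its starts. They were searched on both strands for an ISRE-type motif (GAAA, any 2 bases, GAAA), a GAS-type motif (TTCNNNGAA, the same on both strands), known from genes that interferon gamma induces, and an NF-kB-type motif (GGGA, any 2 bases, TTCC); no match overlapped another. These windows hold the letters in 3.44%, 8.3% and 1.47% of all 32851 promoters. Icam1 was the 1 member with a match, a GAS-type TTCCCGGAA whose first base lies at -42 from the start. Irf1, which is no member but rose with ATEV, held TTCCCCGAA at -90 of its first start. The windows of Cd274, Il15ra, Cd80 and Icosl, all called higher with ATEV over PBS, and of Pdcd1lg2 had no match to these letters. Icam1, the member with a match, was not called in that comparison. The lack of a match says nothing on sites elsewhere or of other spelling. The sequences shown are those of Icam1 and Irf1, which carry the motif, and of Cd274 and the first start of Il15ra, which do not; capitals mark the GAS-type match, and all lie on the plus strand, 5′ to 3′.
Icam1, chr9:21015690-21015989: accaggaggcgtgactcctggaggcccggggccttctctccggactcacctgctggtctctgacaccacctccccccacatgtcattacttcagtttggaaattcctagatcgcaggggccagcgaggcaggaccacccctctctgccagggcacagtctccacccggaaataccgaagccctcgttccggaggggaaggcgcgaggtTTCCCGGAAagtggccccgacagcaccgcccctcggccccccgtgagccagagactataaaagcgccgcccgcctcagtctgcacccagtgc
Irf1, chr11:53769764-53770063: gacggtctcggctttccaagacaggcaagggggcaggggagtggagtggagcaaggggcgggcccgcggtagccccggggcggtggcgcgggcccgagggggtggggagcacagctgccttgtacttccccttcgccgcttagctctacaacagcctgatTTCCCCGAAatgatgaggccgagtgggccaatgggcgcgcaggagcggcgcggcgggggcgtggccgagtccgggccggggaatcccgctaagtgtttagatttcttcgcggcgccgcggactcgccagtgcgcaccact
Cd274, chr19:29367188-29367487: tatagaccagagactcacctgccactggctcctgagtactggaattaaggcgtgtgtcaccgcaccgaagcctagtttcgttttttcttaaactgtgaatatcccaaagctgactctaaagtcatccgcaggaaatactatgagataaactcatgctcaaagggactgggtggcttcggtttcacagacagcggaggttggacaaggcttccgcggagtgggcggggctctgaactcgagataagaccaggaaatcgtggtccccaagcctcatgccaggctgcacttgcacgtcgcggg
Il15ra, chr2:11705043-11705342: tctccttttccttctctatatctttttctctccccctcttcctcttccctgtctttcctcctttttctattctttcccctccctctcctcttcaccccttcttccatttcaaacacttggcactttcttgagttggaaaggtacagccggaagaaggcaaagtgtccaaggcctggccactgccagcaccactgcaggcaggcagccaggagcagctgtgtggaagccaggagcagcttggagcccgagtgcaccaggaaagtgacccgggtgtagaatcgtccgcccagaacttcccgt
A match is a stretch of letters, not a bound site, and no binding was measured in these samples.

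**Figure D5:**
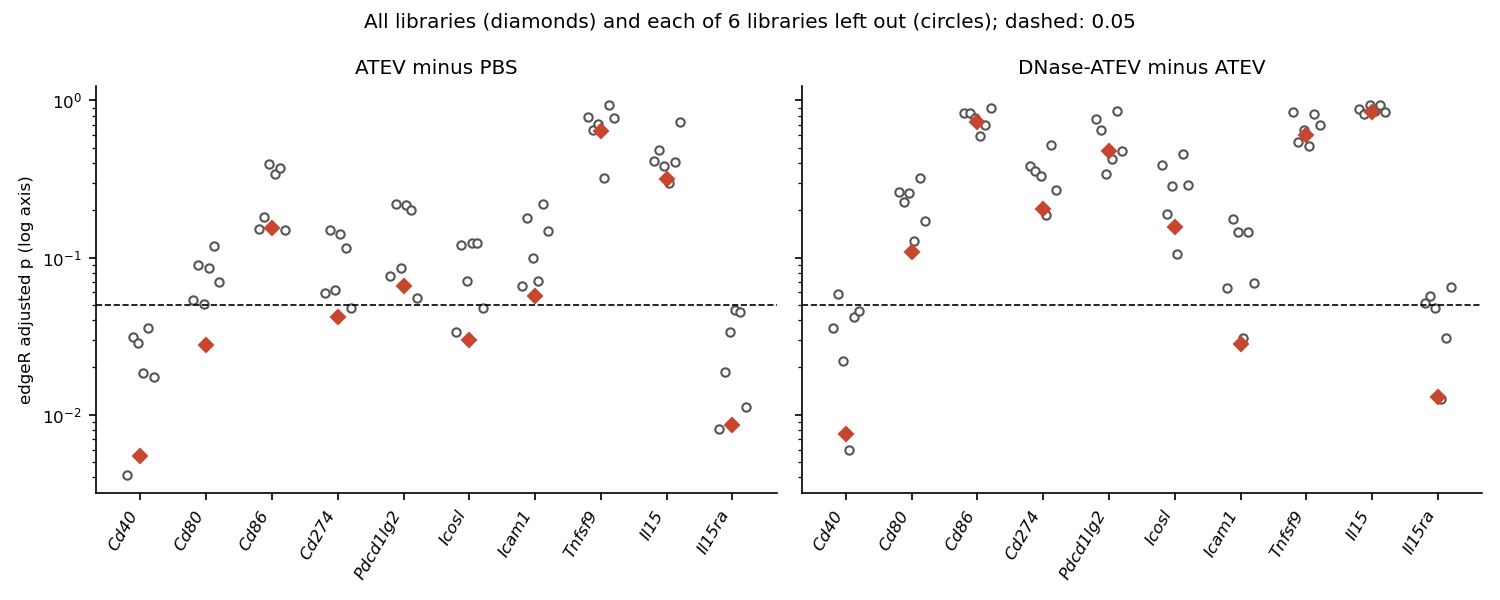
The vertical log axis gives the edgeR adjusted p of each gene, as a diamond with all 12 libraries and as circles with each of the 6 libraries of the comparison left out; the dashed line is 0.05. Left panel, ATEV over PBS: Cd40 and Il15ra stay under the line in all 6 fits, with their highest values at 0.0354 and 0.0461, while Cd80 crosses it in all 6. Right panel, DNase-ATEV over ATEV: Cd40 stays under it in 5 of 6.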

How the data were processed

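Per the labels' protocols, RNA of DC2.4 cells was purified with a column kit and sequenced from TruSeq stranded mRNA libraries. Tools in the submitters' processing notes are Cufflinks 2.1.1, TopHat, TopHat2 2.0.11 and bcl2fastq 2.19, with mm9 as build; the read counter, annotation and strand setting are not given in the sources used here. The authors deposited whole-number counts per gene and library; these are raw. Groups come from the treatment label and replicate numbers from the titles.

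Of 42687 identifiers, 42250 matched a symbol of GENCODE M21. The fit used edgeR 4.0.16 (R 4.3.3) after filterByExpr (minimum count 10, minimum total 15; 13261 genes kept) and TMM scaling, with 1 mean per group over all 12 libraries (common biological coefficient of variation 0.183). All p-values are two-sided quasi-likelihood tests, adjusted by Benjamini-Hochberg over the 13261 genes of a contrast; a gene is called under 0.05. Standard errors derive from the F statistic. DESeq2 1.42.0 and limma 3.58.1 (voom) were alternatives. CPM are TMM-scaled. Replicates differed beyond counting noise (chi-square per degree of freedom 14.7 to 130), so none was merged. The scripts were tested on simulated counts.

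The members and all lists were chosen with earlier results of these data known. Named genes are the members, up to 4 called genes with the smallest adjusted p per list and contrast, and Traf1, Relb, Nfkb2, Nfkb1, Irf1, Il2rg and Il2rb; genes named with 0 or few counts, and the gene ratios, were chosen after their values were seen. The promoter motifs were chosen by known function. Some genes that this rule or the search for like profiles names are not reported here. The comparison of NTEV with DNase-ATEV was not analysed here.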

Additional observations from a re-analysis of the deposited data

How the results depend on the processing

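The members' fold changes were recomputed under 7 other settings and with each library of a contrast left out; of these, 327 and 256 values kept their direction and side of the threshold, 3 and 28 lost a call, 18 and 4 gained one, and 1 and 12 changed sign. The sign changes concerned values near 0, except for the imprecise Pdcd1lg2 with ATEV over NTEV (0.33 ± 0.52 with all libraries). Cd40 with DNase-ATEV over PBS was 0.01 under upper quartile scaling and -0.23 to 0.10 with a library left out. With a library left out, Il15ra ranged from -0.11 to 0.13 in that comparison and from -0.02 to 0.22 with NTEV over PBS, Tnfsf9 from -0.36 to 0.03 with ATEV over PBS, Cd86 from -0.26 to 0.06 with DNase-ATEV over ATEV, and Cd80 from -0.12 to 0.39 and Pdcd1lg2 from -0.10 to 0.58 with ATEV over NTEV. Among signalling genes, whose alternatives were added after seeing the data, Irf1 with NTEV over PBS was 0.00 without the filter on low counts and -0.42 to 0.52 with a library left out; Nfkb1 was -0.05 to 0.10 with ATEV over PBS, -0.12 to 0.00 with DNase-ATEV over ATEV and -0.11 to 0.04 with DNase-ATEV over PBS; Nfkb2 was -0.29 to 0.05 with DNase-ATEV over ATEV; Relb was -0.67 to 0.21 with ATEV over NTEV and -0.07 to 0.56 with DNase-ATEV over PBS; and Traf1 was -0.38 to 0.17 with DNase-ATEV over PBS. The cause was not tested.

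Members called numbered 2 to 4 with a library left out for ATEV over PBS (5 with all), 0 to 3 for NTEV over PBS, 0 to 3 for DNase-ATEV over ATEV and 0 to 1 for ATEV over NTEV. For NTEV over PBS they numbered 3 without the filter and 2 with DESeq2; for ATEV over NTEV, 2 without the filter, 2 with DESeq2 and 0 in the fit to the 6 libraries alone. Genes called over the whole table with a library left out were 0 to 8 for DNase-ATEV over PBS, 169 to 849 for ATEV over PBS (628 with all), 34 to 1685 for NTEV over PBS (306), 78 to 522 for DNase-ATEV over ATEV (194) and 70 to 302 for ATEV over NTEV (124). Without the filter on low counts these counts, in the same order, were 47, 1317, 876, 394 and 242, and with DESeq2 37, 1517, 826, 467 and 361. In the fit to the 6 libraries alone they were 1244 for ATEV over PBS, 19 for NTEV over PBS and 82 for ATEV over NTEV, and upper quartile scaling gave 2 for DNase-ATEV over PBS.

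Replicate numbers showed no consistent pairing of the libraries, although 3 libraries a group cannot exclude a pairing or a shared batch. Deviations of same-numbered libraries correlated from -0.07 to 0.50 for DNase-ATEV and PBS, -0.18 to -0.01 for ATEV and PBS, 0.01 to 0.58 for NTEV and PBS, -0.43 to 0.12 for DNase-ATEV and ATEV, and -0.35 to 0.10 for ATEV and NTEV. At most 3 of 6 libraries correlated best with their own number. With the replicate block 1440 genes were called for ATEV over PBS and 1 for DNase-ATEV over PBS, and 7 members for ATEV over PBS, with Icam1 (0.37, adjusted p = 0.0409) and Pdcd1lg2 (2.16, adjusted p = 0.0449) added, the second of which passed the filter through its high libraries. Depth limits Pdcd1lg2 most, with 1 to 28 counts a library.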
